A study of Mus musculus with 4 samples.

Results

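Glucuronidation and epoxide hydrolysis are ways in which a liver cell makes reactive or fat-soluble compounds more soluble in water, and 6 genes of these routes were followed here. They were chosen by function, with earlier results of these data known. Ugdh and Ugp2 supply the activated sugar, Ugt1a6a and Ugt2b35 encode transferases that attach it, and Ephx1 and Ephx2 encode epoxide hydrolases. A probe was assigned to a gene where the accession printed in the scanner file was one of that gene's RefSeq transcripts. This gave 7 probes for 5 of the 6 genes, and 3 of these genes, with 5 of the probes, were bright enough to be tested among 15540 genes in all. Ugt1a6a matched no probe by this rule and was not analysed here.

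The study measured messenger RNA in Hepa1c1c7, a mouse hepatoma cell line, on 4 arrays read in 1 colour. DEM arrays (2) came from cells given diethyl maleate, an electrophile that reacts with thiols, at 100 µM for 6 hours, and DMSO arrays (2) from cells given dimethyl sulfoxide for 6 hours. The title calls DEM an activator of NRF2, the transcription factor that drives many detoxification genes, so the question is how messenger RNA levels differ once cells have been exposed. The labels name the 2 samples of a group as independent RNA without saying that they are separate cultures. The p-values therefore reflect how far these particular samples vary, and that variation may be technical. The limma p-values and SEs also draw on a spread estimated over all genes tested, as given under the processing.

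Glucuronidation starts from glucose. Hexokinases and phosphoglucomutases make glucose 1-phosphate, UGP2 joins it to UTP to give UDP-glucose, and UGDH oxidises UDP-glucose to UDP-glucuronate. The transporter SLC35D1 carries this nucleotide sugar into the endoplasmic reticulum, where UDP-glucuronosyltransferases of the UGT1A and UGT2B families pass the sugar to drugs, phenols, bilirubin and steroids. Epoxides, which cytochrome P450 enzymes form from aromatic compounds and fatty acids, are opened to diols by hydrolases: EPHX1 sits in the microsomal membrane and is known for foreign epoxides, and EPHX2 is soluble and known for epoxides of fatty acids.

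The stretches before the starts of Ugdh and Ephx1 are shown because these are the tested members whose DEM and DMSO arrays did not overlap, and that of Ugt2b34 because it was the one gene called in the surrounding pathway. Each is the 250 bases before the gene's start, 5′ to 3′ on the gene's strand, from RefSeq on GRCm38.p6, a build other than that of the array annotation. Capitals mark matches to TGACNNNGC or, on the opposite strand, GCNNNGTCA, the core of the antioxidant response element to which NRF2 binds with small MAF proteins. The Ugdh stretch lies at chr5:65435843-65436092 on the minus strand, that of Ephx1 at chr1:181017570-181017819 on the minus strand and that of Ugt2b34 at chr5:86906938-86907187 on the minus strand.
Ugdh: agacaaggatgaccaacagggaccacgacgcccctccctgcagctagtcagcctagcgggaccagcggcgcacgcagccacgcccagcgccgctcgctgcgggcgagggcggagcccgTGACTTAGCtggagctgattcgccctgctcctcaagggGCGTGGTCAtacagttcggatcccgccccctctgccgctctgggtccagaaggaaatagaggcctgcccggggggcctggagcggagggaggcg
Ephx1: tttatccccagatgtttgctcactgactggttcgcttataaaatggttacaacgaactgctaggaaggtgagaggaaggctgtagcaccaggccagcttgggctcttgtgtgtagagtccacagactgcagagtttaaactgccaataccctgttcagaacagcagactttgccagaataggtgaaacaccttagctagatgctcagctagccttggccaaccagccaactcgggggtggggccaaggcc
Ugt2b34: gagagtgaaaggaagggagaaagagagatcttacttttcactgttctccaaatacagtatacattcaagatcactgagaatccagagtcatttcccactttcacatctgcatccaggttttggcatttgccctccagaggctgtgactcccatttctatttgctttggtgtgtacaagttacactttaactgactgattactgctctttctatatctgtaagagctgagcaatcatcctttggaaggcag

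The Ugdh stretch holds 2 matches, TGACTTAGC from 132 to 124 bases before the start and GCGTGGTCA, on the opposite strand, from 94 to 86 bases before it. The second overlaps the letters GCGTG, the core bound by the aryl hydrocarbon receptor, which occurs on either strand in 28.2% of windows of this length. Matches to GCGTG numbered 3 in the Ugdh stretch, 5 and 0 at the starts of Ugp2, and 0 in those of Ephx1 and Ugt2b34. Of 32851 such windows of all genes in the RefSeq table, 10.2% hold TGACNNNGC on either strand. The windows of Ephx1, Ugt2b34, Ugt2b35, Ugt1a6a and both starts listed for Ugp2 hold 0 matches to TGACNNNGC, and that of Slc35d1 holds 1, TGACCCCGC. A match of letters is a description of the sequence and not of binding. Of the 6 genes, 5 have a window in the table.

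Between 50.4% and 52.6% of the 41174 probes on an array exceeded background by the scanner software's criterion (well above background), and saturation affected 0 spots. All 4 arrays lay on 1 slide, the DEM arrays at positions 3 and 4 and the DMSO arrays at positions 1 and 2, so position and treatment cannot be told apart. Of 10 hepatocyte markers, 9 had a probe and 4 were tested (Alb, Afp, Trf and Apob), while Ttr, Apoa1, Fgb and Hnf4a were not well above background on any array. Of the markers of other cells, 2 of 6 for macrophages and leukocytes, 5 of 6 for fibroblasts and stellate cells, 2 of 5 for endothelium and 3 of 4 for cholangiocytes were tested. Limma called 0 markers in each list, beside 1.22% of all genes. Unadjusted p was under 0.05 for 2 hepatocyte markers, both higher in DEM, and for 1 macrophage and 1 cholangiocyte marker, both lower. Of all genes, 9.02% were higher and 10.2% lower at that threshold. The tested probe of Apob read 52.7 and 119 on the DEM arrays, against 14.4 and 3.46 on the DMSO arrays, of which the last was not well above background, and its other 4 probes were not so on any array, so no fold is given. The part of these markers in the results was not tested.

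In the gene that makes UDP-glucuronate and in the gene for microsomal epoxide hydrolase, signals were higher on both DEM arrays than on either DMSO array, by about 1.5-fold, and neither difference passed the adjusted threshold. Ugp2, one step before Ugdh, gave overlapping signals with the probe used for it. Signals of its second probe did not overlap (log2 change 0.13, not called). Ugt2b35 and Ephx2 were not well above background on any array. By limma across all genes tested (adjusted p under 0.05, Benjamini-Hochberg), 0 of the 3 tested members were called, against a background of 1.22% of all genes (0.708% higher and 0.508% lower), and 2 of the 3 were higher at p under 0.05 before adjustment. That threshold was met by 19.2% of all genes, 9.02% higher and 10.2% lower in DEM. By the probe used for each gene, non-overlap of the groups held for 2 of 3 members, both higher in DEM. It held for 50.6% of all genes, with 24.9% of all genes higher and 25.6% lower in DEM.

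**Figure D1:**
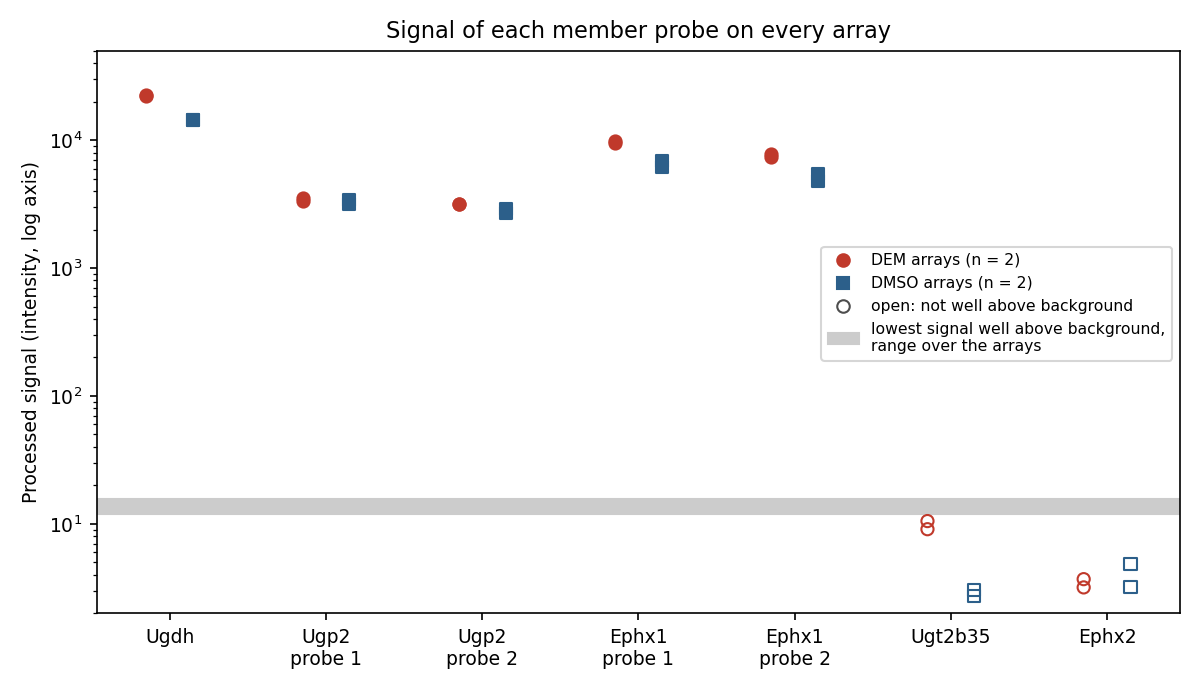
Processed signal (intensity, log axis) of the 7 member probes on each array, with DEM arrays as red circles and DMSO arrays as blue squares (n = 2 each). Ugdh and both Ephx1 probes have DEM points above the DMSO points, probe 1 of Ugp2 (the brighter on the DMSO arrays) has overlapping points, and the open points of Ugt2b35 and Ephx2 lie under the grey band, which spans the lowest signals well above background (12 to 15.7).

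Ugdh, UDP-glucose dehydrogenase, had processed signals of 22100 and 22400 on the DEM arrays, against 14300 and 14300 on the DMSO arrays. The 2 DEM arrays lay well clear of the 2 DMSO arrays, and the spread within each group was small beside the gap. After each array was scaled on its 75th percentile, the log2 change, DEM minus DMSO, was 0.60 ± 0.087 (SE, n = 2 arrays per group), a 1.51-fold difference with a 95% interval of 1.28 to 1.78. The limma p was 0.00175 before adjustment and 0.0694 after it, which missed the threshold. By size of rise the gene stood at place 513 of 15540, within the top 3.3% of log2 changes.

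Ugp2, UDP-glucose pyrophosphorylase, had signals of 3360 and 3530 on the DEM arrays, against 3420 and 3190 on the DMSO arrays, for the probe used. The higher DMSO array lay between the 2 DEM arrays. The log2 change was 0.019 ± 0.094 (limma adjusted p = 0.944), and its 95% interval ran from 0.85-fold to 1.21-fold. This interval leaves out a difference as large as the 1.51-fold seen for Ugdh, though it does not show that Ugp2 was equal in both groups.

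The second Ugp2 probe read 3150 and 3160 on the DEM arrays, against 2910 and 2700 on the DMSO arrays. These groups did not overlap, with a log2 change of 0.13 ± 0.090 in the fit of every probe on its own (limma adjusted p = 0.521). Its interval, 0.93-fold to 1.29-fold, overlaps that of the first probe, and neither probe was called. The sign of the gene's change turned under quantile normalization (−0.012) and normexp background correction (−0.086), so no direction is given for Ugp2.

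Ephx1, microsomal epoxide hydrolase, had signals of 9930 and 9550 on the DEM arrays, against 6880 and 6150 on the DMSO arrays. Both DEM arrays were brighter than both DMSO arrays. The log2 change was 0.54 ± 0.090 (SE, n = 2 arrays per group), a 1.45-fold difference with a 95% interval of 1.23 to 1.72, at a limma p of 0.00291 before adjustment and 0.0812 after it. Its rise stood at place 629 of the 15540 genes tested.

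A second Ephx1 probe, for the same transcript, gave 7800 and 7340 on the DEM arrays, against 5430 and 4780 on the DMSO arrays. The order of the arrays was the same as for the first probe, with DMSO replicate 2 dimmest in both. Fitted on its own, this probe had a log2 change of 0.53 ± 0.097, within 1 SE of the 0.54 of the first (limma adjusted p = 0.0952). The probes report one gene in the same RNA and are not independent replicates of the treatment.

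Ephx2, soluble epoxide hydrolase, read 3.69 and 3.18 on the DEM arrays, against 3.2 and 4.82 on the DMSO arrays. All 4 signals were below the lowest signal well above background on their array, which was 15.7 and 14.6 on the DEM arrays and 13.5 and 12 on the DMSO arrays. No fold is given, and a difference was not detectable at this signal.

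Ugt2b35, a transferase of the UGT2B family, read 9.07 and 10.5 on the DEM arrays, against 3.02 and 2.72 on the DMSO arrays. The DEM arrays read higher without overlap, but these 4 signals also lay under the lowest signal well above background, so no fold is given. For a member left out of the fit, an exact two-sided permutation test of 2 against 2 arrays cannot give a p below 0.333.

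Ratios of members on the same array do not depend on scaling by 1 factor per array. They use the 1 probe that stood for each gene. The second Ugp2 probe had a larger log2 change than the probe used, 0.13 against 0.019, and ratios with it were not computed. The log2 ratio of Ugdh to Ugp2 was 0.58 higher in DEM than in DMSO, while it differed by 0.052 within the DEM arrays and by 0.10 within the DMSO arrays. For Ugp2 over Ephx1 the change was −0.52, with differences of 0.13 within DEM and 0.061 within DMSO. The ratio of Ugdh to Ephx1 changed by 0.056, less than the 0.076 within DEM and the 0.16 within DMSO. The exact two-sided permutation p was 0.333 for the first and the second ratio, the smallest that 2 against 2 arrays allow, and 0.667 for the third (0.50, 0.50 and 0.667 when adjusted over the 3 pairs). The ratio of Ugdh to Ugp2 thus differed between the groups by more than the arrays of a group differed, but a permutation test over 4 arrays cannot call such a difference, and no other test of the ratios was run.

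**Figure D2:**
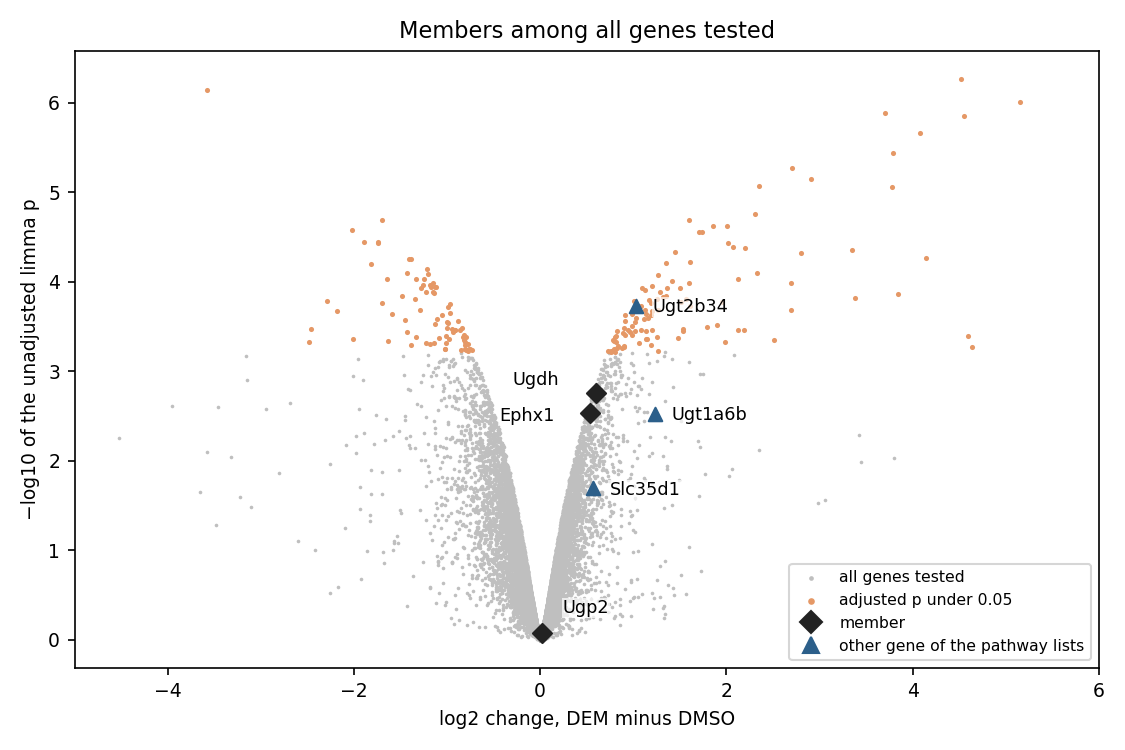
Each of the 15540 genes tested by its log2 change, DEM minus DMSO, and by −log10 of the unadjusted limma p. Ugdh and Ephx1 (diamonds) lie on the rising arm below the orange genes with an adjusted p under 0.05, Ugp2 lies at its foot, and Ugt2b34 (triangle) lies among the called genes.

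The pattern nearest to that of Ugdh was sought among named genes well above background on all 4 arrays, as the smallest Euclidean distance between the 4 log2 values after centring each gene on its mean. The nearest were Zbtb40 (distance 0.012), Mipol1 (0.015) and Pnpla8 (0.021), with log2 changes of 0.59, 0.59 and 0.58. None of these 3 genes was called (limma adjusted p = 0.0710, 0.0704 and 0.0749). The distance rests on 4 arrays that share the treatment contrast, and it describes only how alike the values are.

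The wider pathway was read from lists that hold 66 genes, of which 55 had a probe and 28 were tested. By limma 1 of the 28 rose, 0 fell and 27 were not called, where the background of rises is 0.708%. Before adjustment, 5 of the 28 were higher and 0 lower at p under 0.05, where the shares of all genes are 9.02% and 10.2%. The median log2 change of the 28 was 0.050, against −0.0061 over all genes tested. The scaled log2 signals of the groups did not overlap for 8 genes that were higher and 5 that were lower in DEM, out of 28. The shares of all genes are 24.9% and 25.6%. Among the lower genes, the unscaled signals of Galk1, Gusb and Cyp2s1 do overlap.

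Among UDP-glucuronosyltransferases, the enzymes that carry out the conjugation, 15 of 22 genes had a probe and 3 were tested. Ugt2b34 rose, 0 fell and 2 were not called, where the background of rises is 0.708%. Ugt2b34, of the UGT2B family, had signals of 543 and 494 on the DEM arrays, against 246 and 246 on the DMSO arrays. Both DEM arrays were brighter than both DMSO arrays by far more than the arrays of a group differed. The log2 change was 1.03 ± 0.089, or 2.05-fold (limma adjusted p = 0.0359). Without any one array the log2 change stayed between 0.99 and 1.07, but the call was lost in each case (limma adjusted p of 0.0732 when DEM replicate 1 was left out, 0.0708 for DEM replicate 2, 0.229 for DMSO replicate 1 and 0.231 for DMSO replicate 2). It was also lost with the replicate number as a block (adjusted p = 0.0529) and with no filter on dim probes (0.202).

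Ugt1a6b, a phenol-conjugating transferase next to Ugt1a6a in the Ugt1a cluster, had signals of 2930 and 2320 on the DEM arrays, against 1300 and 896 on the DMSO arrays. The groups did not overlap, although the arrays of each group differed more than for Ugt2b34. The log2 change was 1.23 ± 0.21, or 2.35-fold, and was not called (limma adjusted p = 0.0830). It was called in 5 of 15 other settings, with log2 changes between 0.99 and 1.47 and limma adjusted p between 0.0013 and 0.29 over the 15. The lowest, 0.0013, came from spike-in scaling, where the SE was 0.275 for Ugt1a6b, Ugdh, Ugp2 and Ephx1 alike. That p does not rest on the gene's own spread. Genes of the Ugt1a cluster have first exons of their own and share the exons that follow, and Ugt1a6a and Ugt1a6b are close copies. Whether this probe also reads Ugt1a6a or other transcripts of the cluster was not tested, and its signal is therefore uncertain as to gene.

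The third transferase tested, Ugt2b5, was well above background on 1 array of each group, with 19.8 on DEM replicate 2, against 49.3 on DMSO replicate 2. The groups overlapped, and its log2 change of −0.51 ± 0.79 had no settled direction. Of the other 12 transferases with a probe, 11, Ugt2b35 among them, were not well above background on any array and Ugt2b38 was so on DEM replicate 1 alone (16.7).

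In the supply of UDP-glucose and UDP-glucuronate, 8 of 10 genes were tested and 0 were called by limma, beside 1.22% of all genes. Before adjustment 1 was higher and 0 lower at p under 0.05, beside 9.02% and 10.2% of all genes. The higher gene was Ugdh, which had the largest log2 change of the list. The list's median was 0.11, and the changes of the tested genes other than Ugdh ran from −0.34 (Pgm5) to 0.35 (Hkdc1). Non-overlap held for 4 of the 8 genes with higher and 2 with lower signal in DEM, beside 24.9% and 25.6% of all genes.

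In the transport and other use of these sugars, 8 of 11 genes were tested and 0 were called by limma, beside 1.22% of all genes (median log2 change −0.039). At p under 0.05 before adjustment 1 was higher and 0 lower, beside 9.02% and 10.2% of all genes. Slc35d1, the transporter of UDP-glucuronate into the endoplasmic reticulum, had signals of 317 and 332 on the DEM arrays, against 190 and 239 on the DMSO arrays. The groups did not overlap, and the DMSO arrays differed from each other by more than the DEM arrays did. The log2 change was 0.56 ± 0.16, or 1.48-fold (limma adjusted p = 0.179). Leaving out DMSO replicate 1 gave 0.37 and leaving out DMSO replicate 2 gave 0.76, with no call in either case.

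Gusb, the lysosomal enzyme that cleaves glucuronides, is printed as 10 spots on each array and was named after its values were seen. It had a median of 5280 and 5005 over the unflagged spots of the 2 DEM arrays, against 5645 and 5130 on the 2 DMSO arrays. The coefficient of variation between spots of an array was 2.53% and 1.23% on the DEM arrays, against 4.0% and 3.06% on the DMSO arrays. The log2 change was −0.083 ± 0.088 and was not called (limma adjusted p = 0.672).

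Of 5 epoxide hydrolases, all had a probe and 2 were tested, with 0 called, beside 1.22% of all genes. At p under 0.05 before adjustment 1 was higher and 0 lower, beside 9.02% and 10.2% of all genes. Besides Ephx1, the other tested gene was Lta4h, whose product opens the epoxide of leukotriene A4, with a log2 change of −0.012 ± 0.11 (limma adjusted p = 0.971). Ephx3 and Ephx4, like Ephx2, were not well above background on any array. Ephx1 was the one Ephx gene of the list that was well above background.

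Of 18 cytochrome P450 genes listed here as epoxide-forming, 16 had a probe and 7 were tested (median log2 change 0.11). Whether the product of each listed gene forms epoxides was not tested. Of the 7, 0 were called, beside 1.22% of all genes, and 0 had p under 0.05 before adjustment, beside 19.2%. Cyp2c70 had the largest change of the list, 0.85 ± 0.82 on the log2 scale (limma adjusted p = 0.643). Its signals were 27.6 and 138 on the DEM arrays, against 28.8 and 38.3 on the DMSO arrays, so the difference rested on 1 array. Without DEM replicate 2 the log2 change was −0.33, and without DEM replicate 1 it was 2.04 and was called (limma adjusted p = 0.0470).

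**Figure D3:**
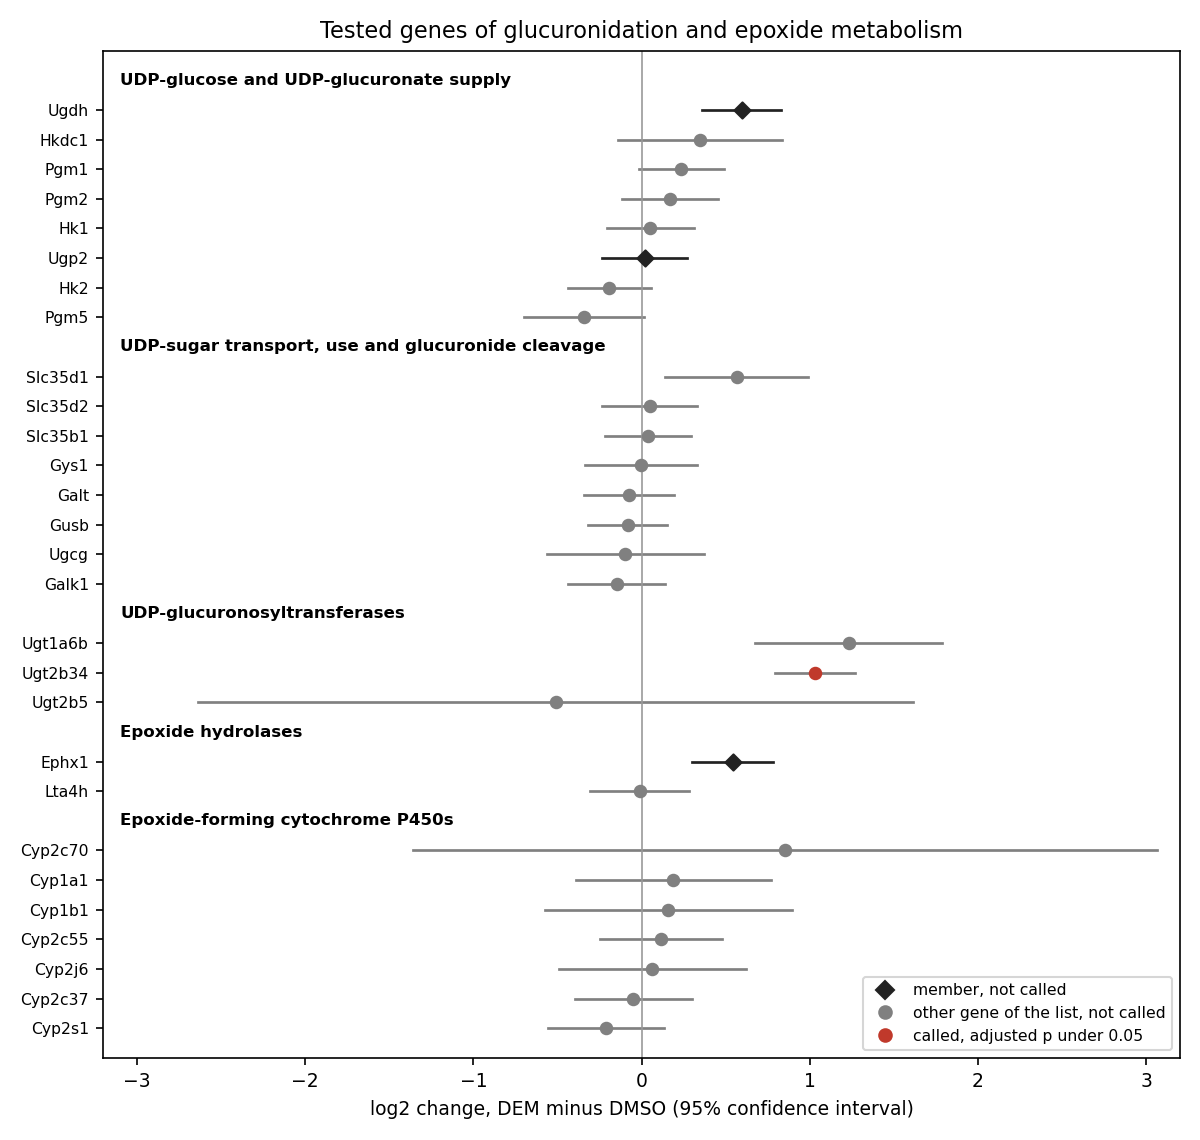
Log2 change, DEM minus DMSO, of the 28 tested pathway genes with 95% confidence intervals, grouped by list; diamonds are members and red marks the gene called. Ugt2b34 is the 1 called gene, the intervals of Ugdh, Ephx1, Ugt1a6b and Slc35d1 also lie to the right of 0, and those of Ugt2b5 and Cyp2c70 are the widest.

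The standing of Ugdh and Ephx1 depended on how the spread was modelled and the arrays scaled. Ugdh was called in 4 of 15 other settings and Ephx1 in 3 of 15. The log2 change was above 0 in 15 of 15 for each, between 0.53 and 0.74 for Ugdh and between 0.43 and 0.69 for Ephx1. The value table, the other filters, the fit of every probe, the intensity trend and the replicate block left both log2 changes as reported. These settings are therefore no further check of the direction, and the value table repeats the reported fit. Leaving out 1 array is no check of the direction either, since groups that do not overlap then keep their order. The mean of the gene's probes also left Ugdh as reported, since Ugdh has 1 probe. Median and spike-in scaling shift every gene of an array alike. With an intensity trend in the spread, which changes no fold, the limma adjusted p was 0.00669 for Ugdh and 0.0131 for Ephx1. The median signal of an array was 13.8 to 16.2, where the lowest signals well above background were 12 to 15.7. Median scaling thus rests on signals near background. It shifted the median of all genes to 0.14. Relative to that median the log2 change was 0.60 for Ugdh, 0.55 for Ephx1 and 0.025 for Ugp2. These relative values equal those of the reported fit by arithmetic, since both scalings subtract 1 value per array from every gene. Rises made up 58.2% of the 189 calls over all genes, against 71.3% under median scaling and 35.9% under scaling on spike-in probes. Under spike-in scaling the SE was the same, 0.275, for Ugdh, Ephx1 and Ugp2.

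**Figure D4:**
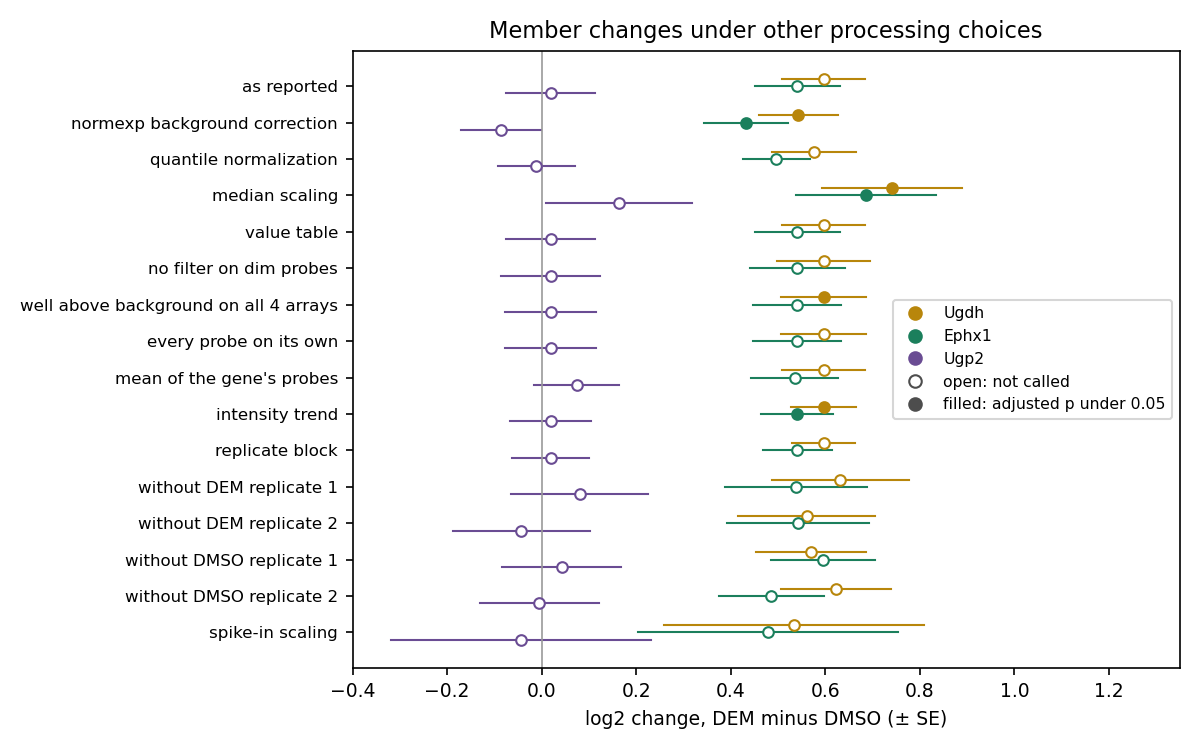
Log2 change (± SE) of Ugdh, Ephx1 and Ugp2 as reported and under 15 other settings, some of which cannot change it. Filled points have an adjusted p under 0.05. Ugdh and Ephx1 stay between 0.43 and 0.74 in every setting drawn, and Ugp2 lies on both sides of 0.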

How the data were processed

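Each sample's RNA (500 ng) was linearly amplified and given the dye Cy3, per the labels' protocols. Per the file headers, the arrays, annotated on mm9, were read with Feature Extraction 10.7.3.1 (protocol GE1_107_Sep09), and the deposited values used are processed signals, an intensity on a linear scale given to 3 significant digits. The authors' deposited value table, with column medians from 13.8 to 16.2, equals the processed signal on 45018 of 45018 spots of each array, so it is linear and uncentred. The extract protocol speaks of liver tissue, and the other labels name the cell line.

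Log2 of the processed signal had each array's 75th percentile over 43379 non-control spots subtracted. Flagged outlier spots were left out (22 of 41174 probes lost), spots of a probe averaged, and probes kept if well above background on at least 2 of 4 arrays. RefSeq accessions (GRCm38.p6, used for names) gave 26682 probes 1 symbol and left 14492 under the file's name. Of the 15540 genes tested, 10954 had a symbol. The others stand under the file's name, may repeat named genes, and count in the ranks and in the shares of all genes. The brightest probe stood for its gene. limma 3.58.1 in R 4.3.3 (lmFit, eBayes, Benjamini-Hochberg over 15540 genes, threshold 0.05) compared DEM with DMSO, and the fit was tested on simulated data. In this fit each gene's spread is drawn towards a prior spread fitted over all genes tested (SD 0.111 on the log2 scale, 2.37 degrees of freedom). The SEs, intervals and limma p-values therefore do not rest on the gene's own values alone. Intervals are 95%, and 2 arrays per group limit their precision.

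Named by rule are all members, the called gene and the largest change of each of the 5 pathway lists, and the 3 genes nearest to the called members or, with none called, to the member with the largest change. Other genes were named after their values were seen. Members and lists were chosen with earlier results of these data known. Alternatives were normexp (offset 50, on the median spot signal, since no mean signal is among the columns used), quantile and median scaling, the value table, other filters and probe rules, an intensity trend, the replicate block, leaving out each array, and scaling on 8 spike-in probes, added after seeing the data. Slide and scan were shared by all arrays and could not be tested as batches.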

Additional observations from a re-analysis of the deposited data

How the results depend on the processing

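The number of genes called, 189 as reported, was 807 after normexp, 726 with an intensity trend, 567 with median scaling, 557 with spike-in scaling, 426 with probes well above background on all 4 arrays, 93 with quantile normalization and 0 with no filter on dim probes (1246 higher and 1919 lower at p under 0.05 before adjustment, limma), and it ran from 0 to 121 without one array. Without DMSO replicate 1 it was 0 (984 higher and 1132 lower at p under 0.05 before adjustment), and without DMSO replicate 2 also 0 (845 and 1170). Of the members, 2 were called after normexp (Ugdh 0.54, Ephx1 0.43), with median scaling (0.74, 0.69) and with an intensity trend (0.60, 0.54), and 1 with the filter on all 4 arrays (Ugdh 0.60), against 0 as reported. Ugp2 turned to −0.086 after normexp, −0.012 with quantile normalization and −0.044 with spike-in scaling, and it ran from −0.043 to 0.081 without one array. Pathway genes called, 1 as reported, were 4 after normexp, with median scaling and with an intensity trend, 3 with the filter on all 4 arrays, 2 with spike-in scaling and 0 with no filter, and they ran from 0 to 1 without one array. The 1 without DEM replicate 1 was Cyp2c70, whose log2 change ran from −0.33 to 2.04 without one array. The labels' replicate numbers share no stated batch, and the deviations of same-numbered arrays correlated at 0.14 across genes. With the replicate number as a block 143 genes, 0 members and 0 pathway genes were called, with log2 changes as reported. The causes of these shifts were not tested. Under spike-in scaling the SE was 0.275 for Ugdh, Ugp2, Ephx1, Ugt1a6b and Cyp2c70 alike, so calls there do not rest on each gene's own spread. Median scaling rests on signals near background, as given above. Signals near background limit what can be said of Ugt2b35 and Ephx2.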

Other observations

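UDP-glucuronate is also the building block of proteoglycan chains and hyaluronan, and a list of 23 genes for these chains was drawn up after the results above were known. Of these, 22 had a probe and 14 were tested, with 0 called by limma, beside 1.22% of all genes, and a median log2 change of −0.063. Before adjustment 1 was higher and 2 were lower at p under 0.05, beside 9.02% and 10.2% of all genes. These counts are read as no result about the list. Chpf2, which helps to lengthen chondroitin chains, had signals of 2500 and 2350 on the DEM arrays, against 1610 and 1420 on the DMSO arrays. Both DEM arrays were the brighter, with a change of 0.64 ± 0.094 on the log2 scale (limma adjusted p = 0.0694), and the second probe, fitted on its own, gave 0.60. Ext1, a polymerase of heparan sulfate, had signals of 1930 and 1820 on the DEM arrays, against 2260 and 2390 on the DMSO arrays, for −0.35 ± 0.094 on the log2 scale (limma adjusted p = 0.167). B3galt6, an enzyme of the linker between chain and protein, had 455 and 372 on the DEM arrays, against 534 and 516 on the DMSO arrays, for −0.39 ± 0.12 on the log2 scale (limma adjusted p = 0.190). The hyaluronan synthase genes Has1, Has2 and Has3 were not tested, since none was well above background on 2 arrays.

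Of 7 genes for free glucuronate, 6 had a probe and 5 were tested, again chosen after the results above. Limma called 0 of them, beside 1.22% of all genes. At p under 0.05 before adjustment 1 was higher and 1 lower, beside 9.02% and 10.2% of all genes. The higher one was Xylb, a xylulose kinase, which read 20.8 and 22.9 on the DEM arrays, against 14.1 and 12.6 on the DMSO arrays. It was well above background on both DEM arrays and on neither DMSO array, so it entered the fit through the DEM arrays alone and its count supports nothing about the list. The lower one was Rgn, an enzyme of ascorbate synthesis, with 280 and 271 on the DEM arrays, against 335 and 311 on the DMSO arrays (log2 change −0.27 ± 0.084, limma adjusted p = 0.206). Akr1a1, an aldehyde reductase that acts on glucuronate, had signals of 26700 and 24900 on the DEM arrays, against 26200 and 23400 on the DMSO arrays, for a log2 difference of 0.017 ± 0.092 (limma adjusted p = 0.949).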
